A study of Mus musculus with 8 samples.

Results

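The genes described here are 38 genes of the urea cycle and of amino acid breakdown, all for enzymes except that of the mitochondrial ornithine carrier, taken by symbol from the 55487 genes of the count table. All 38 were found, and all 38 passed the filter on low counts, so none is missing from the comparison. The study describes the RNA as that of the stromal vascular fraction of MC38 tumors, the cells that remain when the tumor cells are sorted away. MC38 is a mouse colorectal cancer line, described as labelled with green fluorescent protein (GFP) and implanted under the skin. By that account, the GFP-positive cells were removed by cell sorting before RNA extraction. The comparison addressed what differs in the tumor host when a circadian clock gene is deleted. The 4 control samples came from mice labelled Bmal1+/+ and the other 4 from mice labelled Bmal1-/-, a conventional deletion in all tissues bred from heterozygous founders. Both groups are described with the same tumor line, and no drug or other agent is named for either. Sex, age and hour of collection are not given in the sources used here.

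The urea cycle disposes of the ammonia that amino acid breakdown releases, and its complete set of enzymes is known chiefly from the periportal hepatocytes of the liver. Aminotransferases pass amino groups to glutamate and aspartate, and dedicated pathways then degrade the carbon skeletons of tyrosine, tryptophan, histidine, proline and serine. Methionine is handled as a cycle: it is activated to S-adenosylmethionine, used as a methyl donor, and returned as homocysteine, which is either remethylated or passed on to cysteine and taurine. Many of these genes respond to feeding, to glucocorticoids and glucagon, and to the hour of the day.

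Several properties of the libraries bear on every value below. Total counts were between 14783346 and 18449143 in libraries labelled Bmal1+/+ and between 14054825 and 15624815 in the libraries labelled Bmal1-/-. Bmal1 counts ran opposite to the labels, with 0.958 to 2.7 CPM (counts scaled to the library total and TMM factor) in libraries labelled Bmal1+/+ and 30.1 to 35 CPM in the others. Counts over the whole gene do not show whether the deleted part was read, so they do not settle the genotype. Both groups are therefore called by their labels throughout. Xist was at 842 to 1093 CPM in libraries labelled Bmal1+/+ and at no more than 0.75 CPM in the libraries labelled Bmal1-/-, and 4 Y-linked genes were counted only in the latter, so that sex and genotype label cannot be told apart. Hepatocyte markers were abundant: 10 of them took 10.6% to 11.3% of the counts in libraries labelled Bmal1+/+ and 6.81% to 7.46% of the others, with albumin (Alb) at a log2 fold change of -2.10. The other 9 markers together were higher, at 40316 to 42244 against 47648 to 63301 CPM. Of these, Apoa1 (1.58), Fgb (1.14) and Serpina1a (0.85) rose on the log2 scale and 6 did not pass the test. In replicate 4 labelled Bmal1-/- Fgb was at 12440 CPM, against 4171 to 5116 CPM in its companions. Trf was at 20247 CPM in that library and at 5337 to 6378 CPM in its companions, against 9974 to 11645 CPM in libraries labelled Bmal1+/+. By contrast, the summed CPM of 10 fibroblast and mural markers was 139 to 221 in libraries labelled Bmal1+/+ and 105 to 109.9 in those labelled Bmal1-/-. The sum of 6 endothelial markers was 137 to 169.5 against 79.4 to 115 CPM, and that of 8 macrophage and leukocyte markers 256 to 319 against 99.3 to 207 CPM. The 8 colon and tumor markers summed to 185 to 229 against 208 to 354 CPM, mostly Krt8 and Krt18, and Cdx2 was at 0 in all 8 libraries. Of the 4 tested, Epcam (-1.31, near the threshold) and Krt19 (-2.18) fell on the log2 scale, both at no more than 5.69 CPM. Krt8 (0.19) and Krt18 (0.46) did not pass the test. Replicate 4 labelled Bmal1-/- stood apart by 6 acute-phase genes, which summed to 35543 CPM against 2213 to 4279 CPM in the other 3 libraries of that label and 1779 to 2823 CPM in libraries labelled Bmal1+/+. The labelled stroma thus held abundant liver-type transcripts and few stromal ones, and the part of these differences in the results on amino acid genes was not tested.

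Together the 38 genes took 3.36% to 4.38% of all counts in libraries labelled Bmal1+/+ and 3.24% to 4.5% in the libraries labelled Bmal1-/-, so their summed share overlapped between the groups. Individual genes moved in both directions. In the libraries labelled Bmal1-/-, 5 genes were lower (Prodh2, Asl, Mat1a, Ahcy and Aldh4a1) and 8 were higher (Bhmt, Csad, Cbs, Agxt, Sdsl, Kynu, Cdo1 and Nags) at an adjusted p below 0.05 (quasi-likelihood test of edgeR, Benjamini-Hochberg adjustment over the 14353 genes tested). The other 25 genes did not pass. These 5 lower genes are 13.2% of the 38, against 16.2% of all genes tested, and the 8 higher genes are 21.1%, against 14.9%. In either direction 34.2% passed, near the 31.1% of all genes. With the study's own criterion, an absolute log2 fold change above 1 with an unadjusted p below 0.05, Prodh2 and Asl were lower (8.71% of all genes were) and Bhmt, Csad and Cbs were higher (5.41% of all genes were). Asl missed this criterion without replicate 2 labelled Bmal1+/+ or replicate 4 labelled Bmal1-/-, and Sds met it without replicate 1 labelled Bmal1-/-. Agxt met it as a higher gene without replicate 3 labelled Bmal1+/+ or replicate 4 labelled Bmal1-/-. The CPM of the groups did not overlap in 7 genes that were lower, or 18.4%, against 16.8% of all genes, and in 8 that were higher, or 21.1%, against 16.7%. The median log2 fold change of the 38 was -0.01, beside 0.02 over all genes, and the median of its absolute value was 0.35, as over all genes. The shares called were thus close to the background, and the description that follows is of single enzymes. In bulk RNA, fewer cells of a type and less RNA per cell cannot be told apart. The series text speaks of 4 mice per group, and where samples were not from separate mice the p-values measure technical spread alone.

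**Figure D1:**
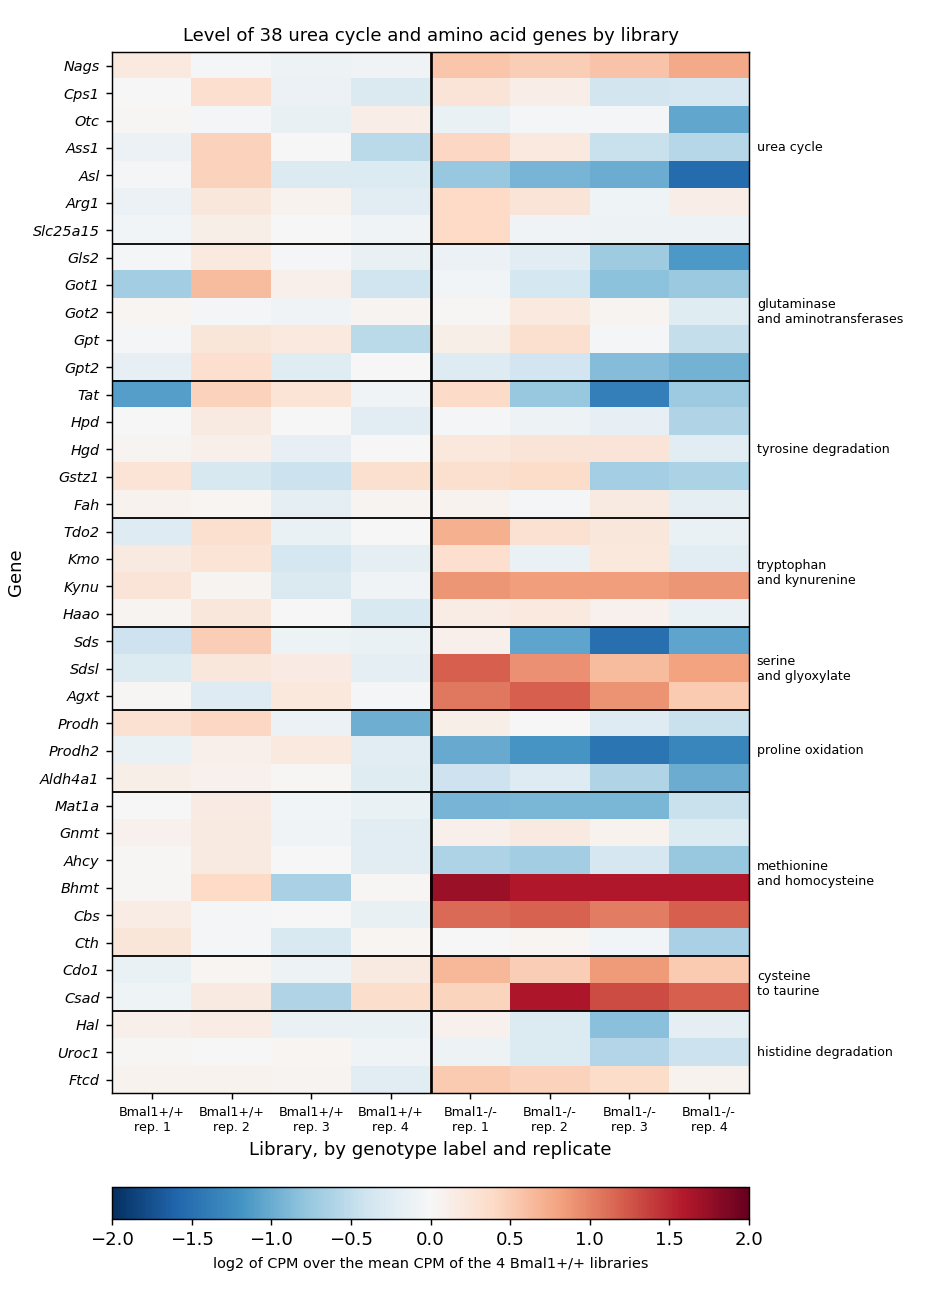
Each row is 1 of the 38 genes and each column 1 of the 8 libraries, with the color giving log2 of the CPM over the gene's mean CPM in the 4 libraries labelled Bmal1+/+, and lines separating the pathways. Bhmt, Cbs and Kynu separate the groups in every library, while Tat and Sds vary as much within a label as between labels.

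**Figure D2:**
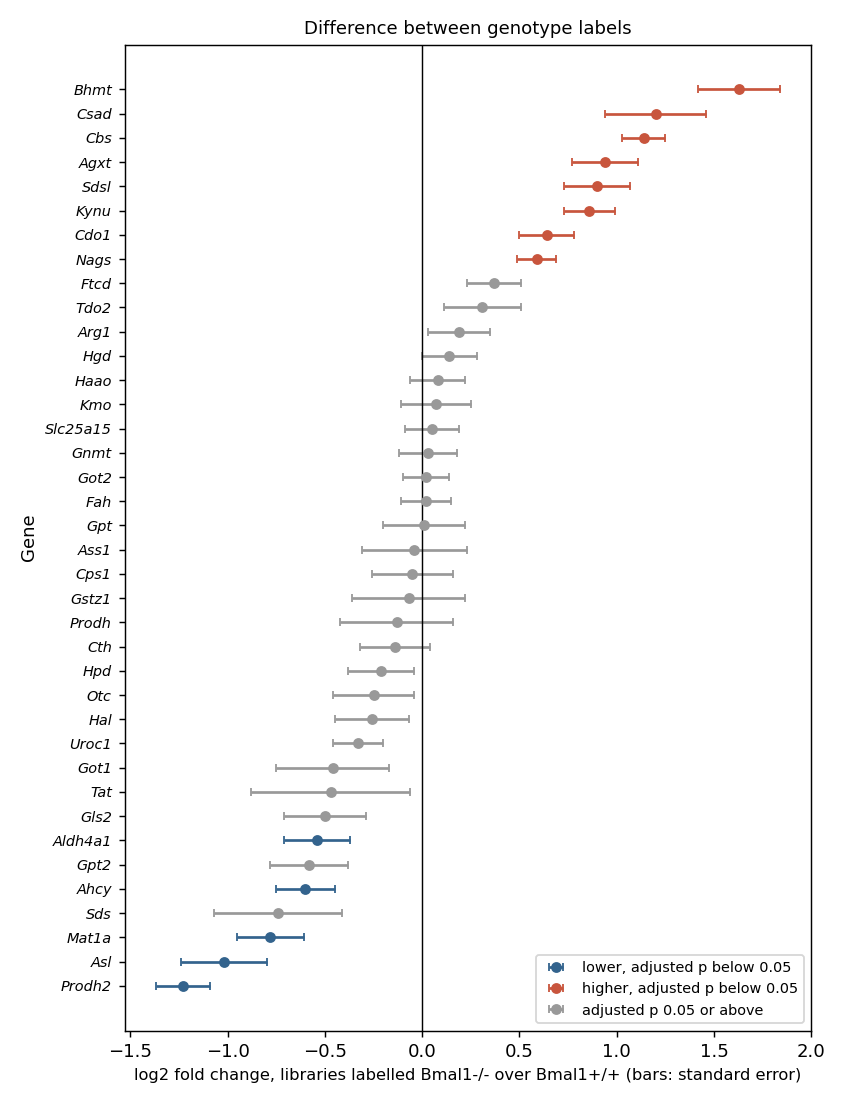
Points are log2 fold changes (libraries labelled Bmal1-/- over those labelled Bmal1+/+) with bars of 1 standard error, with red (higher) and blue (lower) for adjusted p below 0.05 and grey for the rest. The values run from -1.23 for Prodh2 to 1.63 for Bhmt, with 19 genes on each side of 0.

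Levels between genes can be compared only per transcript length, for which the deposited FPKM (fragments scaled by transcript length and library depth) were used. In the libraries labelled Bmal1+/+ the median FPKM was highest for Tat (1487), Mat1a (1470), Cps1 (1012), Hpd (842) and Gnmt (732), where Bhmt was at 282. In those labelled Bmal1-/- the order was Cps1 (997), Bhmt (859), Tat (826), Mat1a (807), Gnmt (777) and Hpd (766). Csad (3.6 and 8.28), Sdsl (3.58 and 6.61) and Prodh (0.44 and 0.378) were lowest under both labels. Prodh, the proline dehydrogenase, had between 40 and 91 counts per library.

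In the urea cycle, 1 gene fell, 1 rose and 5 of 7 did not pass the test. Asl (ENSMUSG00000025533, chromosome 5, 130011258 to 130029247 on GRCm38), which cleaves argininosuccinate to arginine and fumarate, fell. Its CPM were 711, 1002, 605 and 602 in the libraries labelled Bmal1+/+ and 434, 384, 367 and 250.2 in those labelled Bmal1-/-. Every library labelled Bmal1-/- lay below every library labelled Bmal1+/+, with means of 729.9 ± 188 and 359 ± 77.8 CPM (SD, n = 4 each). Asl was 2.03-fold lower (log2 fold change -1.02, standard error, SE, 0.22, adjusted p = 0.0062). Nags (ENSMUSG00000048217, chromosome 11, 102145513 to 102149477) makes N-acetylglutamate, the obligate activator of carbamoyl phosphate synthetase. Nags was at 81.9, 69.8, 66.4 and 68.3 CPM in libraries labelled Bmal1+/+ and at 105, 101, 106 and 120.5 CPM in the libraries labelled Bmal1-/-. These groups did not overlap either, and the rise was 1.51-fold (log2 fold change 0.59, SE 0.10, adjusted p = 0.0024). Exons of Nags overlap those of Gm11586 on the opposite strand, and since strand use in the counting is not stated, reads of the pair cannot be told apart.

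The enzymes on either side of Asl did not follow it. Ass1, which makes the argininosuccinate that Asl cleaves, was at 1340 ± 385 CPM in libraries labelled Bmal1+/+ and 1304 ± 429 CPM in the libraries labelled Bmal1-/- (SD, n = 4 each), a log2 difference of -0.04 (SE 0.27, adjusted p = 0.93). Arg1, the arginase that releases urea, differed by 0.19 on the log2 scale (SE 0.16, adjusted p = 0.4). For Cps1, which makes carbamoyl phosphate at the entry of the cycle, the value was -0.05 (SE 0.21, adjusted p = 0.88). Among libraries labelled Bmal1+/+ Cps1 and Ass1 had their extremes in the same samples: Cps1 was at 7291 CPM in replicate 2 labelled Bmal1+/+ and 4770 CPM in replicate 4, where Ass1 was at 1853 and 927 CPM. Otc, the X-linked ornithine transcarbamylase, was at 528, 509, 470.0 and 571 CPM in libraries labelled Bmal1+/+ and at 475, 511, 512 and 254 CPM in the libraries labelled Bmal1-/-. Only replicate 4, the library with the high acute-phase transcripts, was low, and Otc did not pass the test (log2 fold change -0.25, adjusted p = 0.41). The mitochondrial ornithine carrier Slc25a15 was at 501 to 573 CPM in libraries labelled Bmal1+/+ and at 693, 499, 492 and 490.3 CPM in the others, with replicate 1 alone above the rest (log2 fold change 0.05, adjusted p = 0.83).

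**Figure D3:**
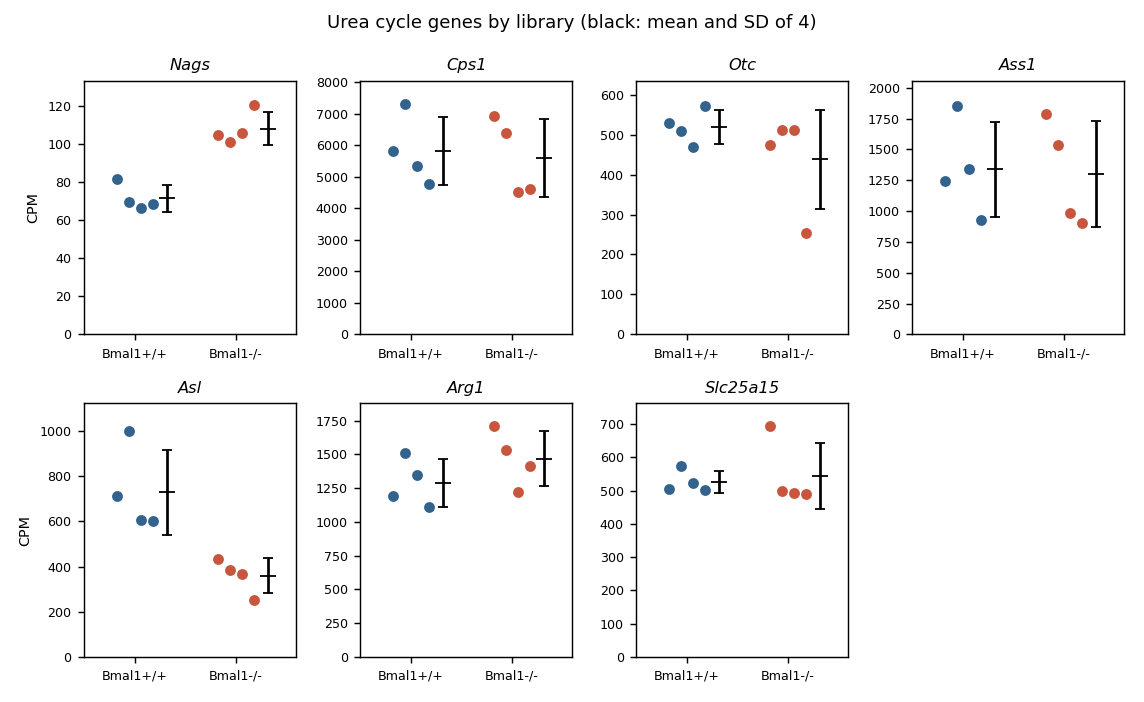
CPM of the 7 urea cycle genes in each library (points; red, labelled Bmal1-/-), with the mean and SD of 4 libraries in black and axes that start at 0. Asl and Nags separate without overlap in opposite directions, and the other 5 genes overlap.

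Of the 6 genes of the methionine cycle and the transsulfuration branch, Bhmt and Cbs rose, Mat1a and Ahcy fell, and Gnmt and Cth did not pass. Bhmt (ENSMUSG00000074768, chromosome 13, 93616675 to 93637961) remethylates homocysteine with betaine as the donor. It was counted at 1765, 2285, 1102 and 1765 CPM in libraries labelled Bmal1+/+ and at 5694, 5225, 5263 and 5254 CPM in the libraries labelled Bmal1-/-. The lowest of the libraries labelled Bmal1-/- exceeded the highest library labelled Bmal1+/+ by more than the whole range of that label, and the means were 1729 ± 484 and 5359 ± 224 CPM (SD, n = 4 each). Bhmt rose 3.1-fold (log2 fold change 1.63, SE 0.21, adjusted p = 4.8e-04), the largest fold change of the 38 genes in either direction. Its exons overlap Gm15622 on the opposite strand.

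Cbs (ENSMUSG00000024039, chromosome 17, 31608894 to 31637238), cystathionine beta-synthase, commits homocysteine to cysteine. Its CPM were 284, 249, 257 and 231 in libraries labelled Bmal1+/+ and 557, 579, 519 and 587 in the libraries labelled Bmal1-/-. Both groups were tight and far apart, and Cbs rose 2.2-fold (log2 fold change 1.14, SE 0.11, adjusted p = 1.0e-04), the lowest adjusted p of the 38 genes. Cth, the next enzyme, which splits cystathionine to cysteine, stayed within its spread at 633 ± 98.5 and 576 ± 116 CPM (SD, n = 4 each; log2 fold change -0.14, SE 0.18, adjusted p = 0.6).

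Both enzymes that fell belong to the S-adenosylmethionine arm. Mat1a (ENSMUSG00000037798, chromosome 14, 41105035 to 41124412) makes S-adenosylmethionine from methionine. Mat1a was at 6050, 6733, 5784 and 5519 CPM in libraries labelled Bmal1+/+ and at 3171, 3205, 3203 and 4432 CPM in the libraries labelled Bmal1-/-. Replicate 4 of the latter lay well above its 3 companions and still below every library labelled Bmal1+/+, and the log2 fold change was -0.78 (SE 0.17, adjusted p = 0.0064). Ahcy hydrolyzes S-adenosylhomocysteine to homocysteine. It was at 1304, 1453, 1300 and 1095 CPM in libraries labelled Bmal1+/+ and at 838, 792, 1015 and 762 CPM in the others, without overlap (log2 fold change -0.60, SE 0.15, adjusted p = 0.012). Gnmt, a methyltransferase that consumes excess S-adenosylmethionine and stands between them, was nearly level at 1538 ± 188 and 1574 ± 204 CPM (SD, n = 4 each; log2 fold change 0.03, SE 0.15, adjusted p = 0.89).

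From cysteine to taurine, both genes rose. Cdo1, the dioxygenase that oxidizes cysteine to its sulfinic acid, was at 749.7, 839, 763 and 924 CPM in libraries labelled Bmal1+/+ and at 1298, 1157, 1472 and 1183 CPM in the libraries labelled Bmal1-/- (log2 fold change 0.64, SE 0.14, adjusted p = 0.0063). Csad decarboxylates that product on the way to taurine. Csad counts were lower, at 26.6, 31.8, 18.5 and 35.8 CPM against 38.2, 86.9, 69.6 and 64.3 CPM. Replicate 1 labelled Bmal1-/- came close to the highest library labelled Bmal1+/+ without reaching it, and the rise was 2.29-fold (log2 fold change 1.20, SE 0.26, adjusted p = 0.0072). Exons of Csad overlap Zfp740 on the opposite strand.

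**Figure D4:**
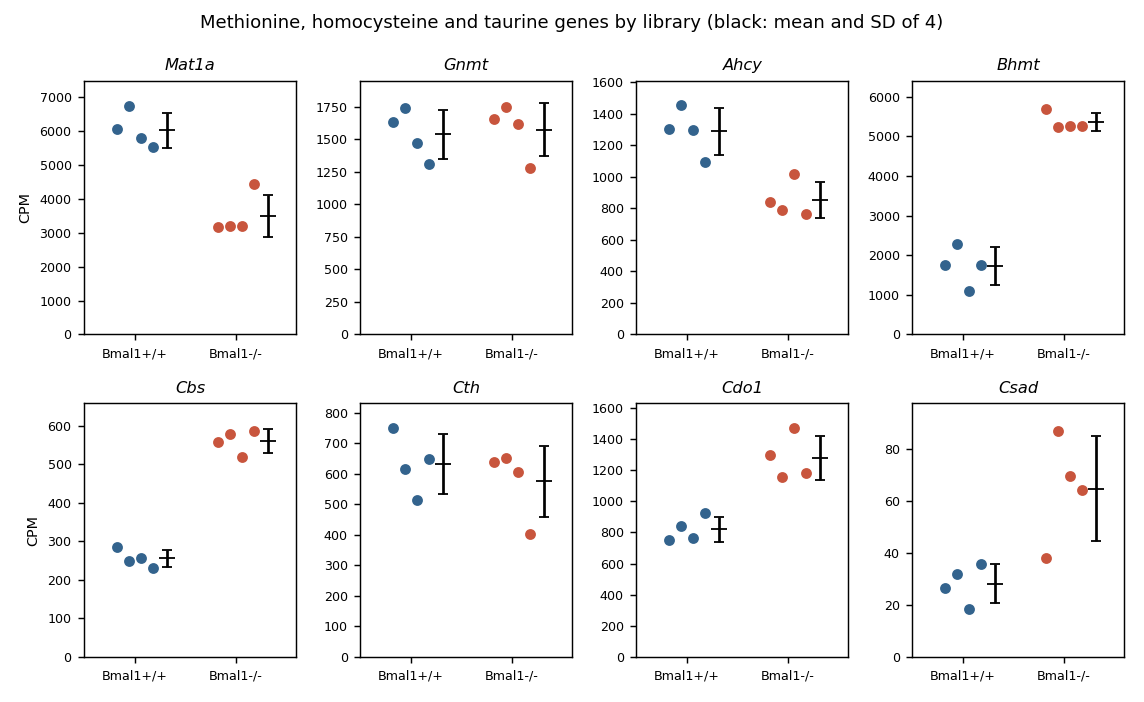
CPM of the methionine, homocysteine, cysteine and taurine genes in each library (points; red, labelled Bmal1-/-), with the mean and SD of 4 libraries in black and axes that start at 0. Bhmt, Cbs, Cdo1 and Csad lie higher in all 4 libraries labelled Bmal1-/-, Mat1a and Ahcy lie lower, and Gnmt and Cth overlap.

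Promoter windows were read because the deleted gene encodes a transcription factor with a known motif. RefSeq windows on GRCm38.p6, of which the 250 bases before the start were searched on both strands, were available for 27 of the 38 genes, in 30 windows. The E-box CACGTG, which reads the same on both strands and is bound by CLOCK and BMAL1, was in 3 of 30 windows (10%), those of Ass1, Cbs and Slc25a15, against 6.02% of 32851 windows of all genes. The D-box TTATGTAA, the site of the PAR bZIP factors, was in 0 of 30, against 0.819%. AGGTCA on either strand, the core letters read by many nuclear receptors, was in 11 of 30 windows (36.7%), against 14% of all windows and 12.8% of those of coding genes. None of these motifs contains another. Of the 8 called genes that have a window, 4 hold AGGTCA and Cbs holds CACGTG. The stretches of 30 bases around each match are shown because they belong to the strongest rise (Bhmt), the strongest fall (Prodh2), the gene with the smallest adjusted p (Cbs) and the other called genes with a match. Letters are 5′ to 3′ on the gene's strand, with the match in capitals (TGACCT where it lies on the other strand):
Bhmt, chr13:93637975-93638004, minus strand: tgtgccagatgtAGGTCAtgcagtttacac
Bhmt, chr13:93637813-93637842, minus strand: gaccccagatcaAGGTCAgaggcctgctat
Bhmt, chr13:93637788-93637817, minus strand: gctattggacaaAGGTCAgtgtgcagacga
Cbs, chr17:31637417-31637446, minus strand: cctcacgacaaaCACGTGttagacggcaga
Prodh2, chr7:30493497-30493526, plus strand: gtcctgttattcTGACCTctgtccctaacc
Ahcy, chr2:155074685-155074714, minus strand: tctgccttgtttTGACCTctgattcactgg
Nags, chr11:102145323-102145352, plus strand: ccactctaaatcTGACCTtcgtgaccctca
The matches begin 234, 72 and 47 bases before the Bhmt start, 229 before that of Cbs, 149 before Prodh2, 205 before Ahcy and 178 before Nags. GENCODE places the Bhmt start 203 bases further upstream than RefSeq, so the matches nearest the RefSeq start lie inside the GENCODE gene. AGGTCA stands in genes that rose (Bhmt, Nags), fell (Prodh2, Ahcy) and did not pass the test (Gnmt, Got1, Got2, Haao, Hgd, Tdo2, Uroc1). A match describes letters and is not evidence of binding.

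In proline oxidation 2 of 3 genes fell. Prodh2 (ENSMUSG00000036892, chromosome 7, 30493622 to 30513402), a hydroxyproline dehydrogenase, was at 187, 219.7, 233 and 176 CPM in libraries labelled Bmal1+/+ and at 101, 90.4, 74.3 and 82.5 CPM in the libraries labelled Bmal1-/-. The groups were widely separated, and Prodh2 was 2.34-fold lower (log2 fold change -1.23, SE 0.14, adjusted p = 1.7e-04), the strongest fall of the 38. Aldh4a1 oxidizes the products of these dehydrogenases to glutamate and its relatives, and was at 818, 805, 767 and 642 CPM against 569, 637, 499 and 383 CPM. Its ranges stopped just short of each other, with 637 CPM in the highest library labelled Bmal1-/- and 642 CPM in the lowest library labelled Bmal1+/+. The log2 fold change was -0.54 (SE 0.17, adjusted p = 0.038), and the adjusted p was 0.09, 0.085 and 0.074 without replicate 1, 2 or 3 labelled Bmal1+/+ and 0.056 and 0.073 without replicate 1 or 3 labelled Bmal1-/-. Aldh4a1 shares exons on the same strand with Gm21969. Prodh did not pass (log2 fold change -0.13, SE 0.29, adjusted p = 0.77).

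Among serine and glyoxylate enzymes, Agxt and Sdsl rose and Sds did not pass. Agxt, the peroxisomal aminotransferase that detoxifies glyoxylate to glycine, was at 262, 216, 296 and 254 CPM in libraries labelled Bmal1+/+ and at 535, 586, 478 and 368 CPM in the libraries labelled Bmal1-/-. The groups did not overlap, and Agxt rose 1.91-fold (log2 fold change 0.94, SE 0.17, adjusted p = 0.0025). Sdsl, a serine dehydratase-like gene, was at 5.83 to 8.24 CPM against 10.9 to 16 CPM and rose 1.87-fold (log2 fold change 0.90, SE 0.17, adjusted p = 0.0035). Its paralog Sds, which converts serine to pyruvate for gluconeogenesis, was at 329.8, 615, 408 and 402 CPM in libraries labelled Bmal1+/+ and at 472, 211, 154 and 212 CPM in the others. Here 3 of the 4 libraries labelled Bmal1-/- lay below all libraries labelled Bmal1+/+ and replicate 1 lay among them, and the log2 fold change of -0.74 (SE 0.33) did not pass (adjusted p = 0.12). Without replicate 1 labelled Bmal1-/- it was -1.18, with an adjusted p of 0.0064 in the quasi-likelihood test of edgeR. Exons of Sds overlap Plbd2 and Gm15690 on the opposite strand.

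Tryptophan breakdown changed at 1 of 4 enzymes. Kynu, the kynureninase that cleaves hydroxykynurenine, was at 171, 147, 116 and 135 CPM in libraries labelled Bmal1+/+ and at 263, 253, 255 and 263 CPM in the libraries labelled Bmal1-/-. The highest of these exceeded the lowest by a factor of 1.04, against 1.47 in libraries labelled Bmal1+/+, and Kynu rose 1.82-fold (log2 fold change 0.86, SE 0.13, adjusted p = 9.7e-04). Tdo2, which opens the tryptophan ring at the head of the pathway, was at 1297 ± 235 and 1609 ± 391 CPM (SD, n = 4 each; log2 fold change 0.31, SE 0.20, adjusted p = 0.27). Kmo and Haao, which act before and after Kynu, had log2 fold changes of 0.07 (adjusted p = 0.78) and 0.08 (adjusted p = 0.71). Kynu and Kmo are also known in macrophages. Of 8 macrophage and leukocyte markers, 5 fell and 0 rose by the quasi-likelihood test of edgeR, against 16.2% and 14.9% of all genes. At an unadjusted p below 0.05 the counts were 5 and 0, against 21.1% and 21.2% of all genes. By DESeq2 they were 5 and 0, and by limma-voom 6 and 0. The part of macrophages in the values of Kynu and Kmo was not tested.

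None of the 5 tyrosine degradation genes passed the test of edgeR, DESeq2, limma-voom or limma on log2 FPKM, and 0 had an unadjusted p below 0.05 by edgeR, which 21.1% of all genes had as lower and 21.2% as higher. Hpd and Hgd, the dioxygenases in the middle of the pathway, had log2 fold changes of -0.21 (SE 0.17) and 0.14 (SE 0.14). Gstz1, the isomerase of the same pathway, was at -0.07 (SE 0.29), and Fah, the last enzyme, at 0.02 (SE 0.13). Gstz1 exons overlap Pomt2 and Gm6566 on the opposite strand. Tat, the glucocorticoid-inducible aminotransferase that starts the pathway, had the widest spread in both labels, at 1637, 4829, 4272 and 3369 CPM in libraries labelled Bmal1+/+ and at 4612, 2075, 1360 and 2125 CPM in the others. Replicate 1 labelled Bmal1+/+ was low among its label and replicate 1 labelled Bmal1-/- was high among its own, and the log2 fold change was -0.47 (SE 0.41, adjusted p = 0.41).

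The glutaminase and aminotransferase genes had 0 of 5 called by the quasi-likelihood test of edgeR, with 2 at an unadjusted p below 0.05 (Gls2 and Gpt2, both lower), 1 called by DESeq2, 1 by limma-voom and 0 by limma on log2 FPKM. Of all genes, 16.2% were lower by adjusted p and 21.1% by unadjusted p in edgeR. Of the 14353 genes, DESeq2 called 2579 lower, limma-voom 2395 and limma on log2 FPKM 2220. Gpt2, the mitochondrial alanine aminotransferase, was at 762, 1073, 717 and 853 CPM in libraries labelled Bmal1+/+ and at 715, 655, 469 and 440.0 CPM in the libraries labelled Bmal1-/-. The ranges missed each other by 717 against 715 CPM, and the adjusted p of 0.0505 stood at the threshold (log2 fold change -0.58, SE 0.20). Without replicate 1 labelled Bmal1-/- it was 0.034 (log2 fold change -0.70). Gls2, the liver-type glutaminase, had a log2 fold change of -0.50 (SE 0.21, adjusted p = 0.11) and shares overlapping exons with Spryd4 on the opposite strand. Got1, the cytosolic aspartate aminotransferase, ranged 2.5-fold among libraries labelled Bmal1+/+ (271 to 677 CPM) and 1.7-fold among the others (log2 fold change -0.46, adjusted p = 0.25). Got2, its mitochondrial counterpart, and Gpt, the cytosolic alanine enzyme, had log2 fold changes of 0.02 (SE 0.12) and 0.01 (SE 0.21).

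Histidine degradation had 0 of 3 genes called by the quasi-likelihood test of edgeR, with Uroc1 and Ftcd at an unadjusted p below 0.05 and both called by DESeq2, in opposite directions, and 0 by limma-voom or limma on log2 FPKM. Of all genes, 21.1% were lower and 21.2% higher by unadjusted p in edgeR. DESeq2 called 2579 of the 14353 genes lower and 2253 higher. Uroc1, urocanase, was at 587, 578, 593 and 547 CPM against 536, 478, 383 and 430.0 CPM, without overlap (log2 fold change -0.33, SE 0.13, adjusted p = 0.078). Ftcd, which feeds the formimino group into the folate pool, was at 472, 469.8, 465 and 385 CPM against 642, 619, 579 and 472 CPM, where replicate 4 labelled Bmal1-/- met the top of the range of the other label (log2 fold change 0.37, SE 0.14, adjusted p = 0.068). Without that library Ftcd had an adjusted p of 0.013, and Uroc1 had 0.0485 without replicate 1 labelled Bmal1-/-. Hal, the histidase at the head of the pathway, was at -0.26 (SE 0.19, adjusted p = 0.31).

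The libraries also differed in how often they were the extreme of their label. Replicate 4 labelled Bmal1-/- was the lowest of its label in 21 of the 38 genes, while it was the lowest in 30.0% of all genes tested. Replicate 1 was the highest of that label in 20 genes (22.5% of all genes), and replicate 2 labelled Bmal1+/+ the highest of its label in 23 (23.1% of all genes). Without replicate 4 labelled Bmal1-/-, the 13 calls among the 38 genes remained, and Ftcd joined them. Over all genes, 4008 of the 4457 calls remained and 614 joined. Sorted by position in the liver lobule, 9 of the genes are known as periportal (Cps1, Ass1, Asl, Arg1, Gls2, Hal, Sds, Uroc1 and Ftcd). Asl fell and 0 of the 9 rose by the quasi-likelihood test of edgeR, with 3 lower and 1 higher at an unadjusted p below 0.05, 2 and 1 by DESeq2, and 1 and 0 by limma-voom, and among all genes 16.2% fell and 14.9% rose by adjusted p, and 21.1% and 21.2% by unadjusted p.

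Regulators of amino acid catabolism and known targets of the same hormones were read as 1 list, called regulators for short. Of its 19 genes, 5 were lower (26.3%, against 16.2% of all genes) and 2 higher (10.5%, against 14.9%). Ppargc1a, the coactivator of fasting metabolism, was at 28.5 ± 5.64 CPM in libraries labelled Bmal1+/+ and 10 ± 3.13 CPM in the libraries labelled Bmal1-/- (SD, n = 4 each; log2 fold change -1.50, SE 0.22, adjusted p = 1.0e-03). Ppara (-0.91, adjusted p = 0.017), the glucocorticoid target Fkbp5 (-0.87, adjusted p = 0.013), Cebpb (-0.66, adjusted p = 0.017) and Foxo1 (-0.66, adjusted p = 0.028) also fell on the log2 scale. The glucagon receptor Gcgr rose (0.55, adjusted p = 0.0061), as did the CREB coactivator Crtc2 (0.34, adjusted p = 0.035). The calls of Foxo1 and Crtc2 lay near the threshold. For Foxo1 the adjusted p was 0.0508 to 0.068, with log2 fold changes of -0.68 to -0.54, without replicate 2 or 4 labelled Bmal1+/+ or without replicate 2, 3 or 4 labelled Bmal1-/-. For Crtc2 it was 0.064 to 0.089, with log2 fold changes of 0.29 to 0.35, without any 1 library other than replicate 2 labelled Bmal1-/-. Klf15, a known driver of amino acid catabolic genes, had a log2 fold change of -0.33 (SE 0.16, adjusted p = 0.14). The liver factors Hnf4a (-0.21), Cebpa (-0.29) and Creb3l3 (0.06), the glucocorticoid receptor Nr3c1 (-0.38), Atf4 (-0.09), Sirt3 (0.01), Sirt5 (0.16), Tsc22d3 (0.23), Pck1 (-0.27) and Igfbp1 (0.01) did not pass either. Igfbp1 had the spread of Tat, at 139.5, 399, 378 and 371 CPM in libraries labelled Bmal1+/+ and 491, 187, 255 and 362 CPM in the others, with replicate 1 of each label again at the low and the high end of its label.

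**Figure D5:**
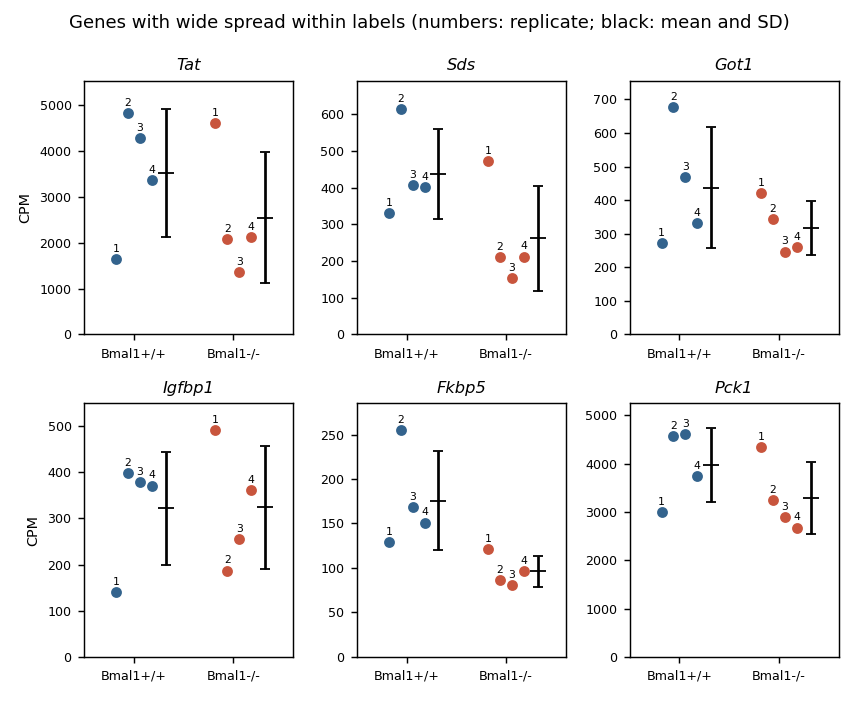
CPM in each library for 6 genes picked by hand, Tat, Sds, Got1 and the hormone-responsive genes Igfbp1, Fkbp5 and Pck1 (points, numbered by replicate; blue, labelled Bmal1+/+; red, labelled Bmal1-/-), with the mean and SD of 4 libraries in black and axes that start at 0. Replicate 1 was the lowest library labelled Bmal1+/+ and the highest library labelled Bmal1-/- in all 6 genes.

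A further 84 genes of amino acid metabolism completed the pathways, of which 78 were tested, 16 were lower (20.5%, against 16.2% of all genes) and 12 higher (15.4%, against 14.9%), together 35.9%, near the 31.1% of all genes. The 5 lowest were Kyat3, a kynurenine aminotransferase (log2 fold change -2.50, adjusted p = 1.4e-04), the carriers Slc38a3 (-1.55, adjusted p = 2.4e-04), Slc38a2 (-1.03, adjusted p = 0.043) and Slc1a2 (-1.02, adjusted p = 0.0015), and Gatm, which makes the creatine precursor (-0.92, adjusted p = 0.0038). Slc38a2 lay near the threshold, with an adjusted p of 0.08 to 0.11 and a log2 fold change of -1.01 to -0.87 without replicate 2, 3 or 4 of either label. Without replicate 4 labelled Bmal1-/-, 14 of the further genes were lower and 19 higher. Over all genes, 2445 were then lower and 2177 higher, with 614 calls gained and 449 lost. The added ones among the further genes were Bcat2, Bckdha, Acadsb, Pccb and Mcee of branched-chain amino acid breakdown, Aldh7a1 and Amdhd1. Branched-chain breakdown is also the largest group of the further genes, with 21 of the 78 tested. Among the 5 highest were the sulfur dioxygenase Ethe1 (1.70, adjusted p = 5.9e-04), the glyoxylate reductase Grhpr (1.56, adjusted p = 1.8e-05), the glycine decarboxylase Gldc (1.35, adjusted p = 5.7e-04) and the aminoadipate aminotransferase Aadat (1.15, adjusted p = 7.3e-04). Kyat3 was counted at 262 to 374 CPM in libraries labelled Bmal1+/+ and 30.1 to 80.9 CPM in the libraries labelled Bmal1-/-, without overlap. Of 11 amino acid carriers tested, 5 fell and 0 rose by the quasi-likelihood test of edgeR, with 6 and 0 at an unadjusted p below 0.05, by DESeq2 and by limma-voom. Among all genes 16.2% fell and 14.9% rose by adjusted p, and 21.1% and 21.2% by unadjusted p. Of the 14353 genes, DESeq2 called 2579 lower and 2253 higher, and limma-voom 2395 and 2156.

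Genes around Bhmt, Agxt and Asl were picked out when their values had been seen. Bhmt2, the neighbor and paralog of Bhmt that uses another methyl donor, rose (log2 fold change 0.77, adjusted p = 8.3e-04), and so did Dmgdh, which oxidizes the dimethylglycine that Bhmt forms (0.70, adjusted p = 0.013). Chdh, the choline dehydrogenase on the way to betaine, fell (-0.91, adjusted p = 2.0e-04), as did Sardh, the sarcosine dehydrogenase (-0.78, adjusted p = 0.0048). The betaine branch thus held genes that moved in both directions. Agxt2, a mitochondrial aminotransferase of glyoxylate, rose (0.92, adjusted p = 0.0023). Slc25a13, which exports the aspartate used by Ass1, fell (-0.59, adjusted p = 0.01), while glutamine synthetase, Glul, had a log2 fold change of 0.05 (adjusted p = 0.84). Bhmt and Bhmt2 are similar in sequence, and how the counting treated reads that match both is not given in the sources used here.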

How the data were processed

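RNA described by the study as from the GFP-negative cells of MC38 tumors was sequenced. There were 4 samples labelled Bmal1+/+ and 4 labelled Bmal1-/-, 1 library each, and samples were grouped by their genotype and replicate labels. Per the study's methods, HISAT2 aligned the read pairs to GRCm38 and StringTie gave a fragment count for each gene; the authors deposited these counts as whole numbers, with no normalization, beside FPKM that they scaled by gene length and depth. The submitters' processing notes also name CASAVA 1.8 and TopHat2 2.0.6. Strand use is not given in the sources used here. Input RNA differs between the paper and the labels, and the series text speaks of arrays although the files hold sequencing counts.

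From the counts, CPM and log2 fold changes were computed with edgeR 4.0.16 in R 4.3.3 (filterByExpr, TMM factors, quasi-likelihood test, prior count 0.125), over 14353 genes, with Benjamini-Hochberg adjustment and a threshold of 0.05. Standard errors are the log2 fold change over the square root of F. FPKM served for levels between genes and, as log2(FPKM + 0.1), for an alternative with limma 3.58.1, on which scale low genes' changes are understated. DESeq2 1.42.0 was another alternative. A count of 3, at 0.163 to 0.213 CPM, is the floor, for counting error only. Symbols and positions are from GENCODE (GRCm38), which precedes the Ensembl annotation of the study and matched 99.4% of 55487 identifiers. Scripts were tested on simulated data.

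The members, lists and tests were chosen with earlier results of these data known. The naming rule took all 38 genes, all regulators and, of the other amino acid genes, the 5 lowest and 5 highest fold changes among those with adjusted p below 0.05 and a mean of at least 1 CPM. The results of some genes that the rule takes are not reported here. The figures were drawn with matplotlib 3.10.9.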

Additional observations from a re-analysis of the deposited data

Results flagged for a closer look

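Among 76 sets of 4 libraries (38 genes in each label), 7 had a library far from the other 3 by Dixon's test, and chance marks about 1 in 20 sets. Replicate 4 labelled Bmal1-/- was low for Otc (254 CPM, the others 475 to 512) and Hgd (536 CPM, the others 722 to 743) and high for Mat1a (4432 CPM, the others 3171 to 3205). Replicate 1 labelled Bmal1-/- was high for Slc25a15 (693 CPM, the others 490.3 to 499) and Bhmt (5694 CPM, the others 5225 to 5263). Replicate 3 labelled Bmal1+/+ was low for Fah (509 CPM, the others 596 to 606), and replicate 4 labelled Bmal1+/+ was low for Ftcd (385 CPM, the others 465 to 472).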

How the results depend on the processing

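Of the 13 called genes, 12 stayed called in each of 17 alternative settings and none changed sign, and only Aldh4a1 lost its call, in 7 settings. Among the 25 others, Gpt2 was called in 6 of the 17 settings and Uroc1 and Ftcd in 2 each. Sds was called in 1, that without replicate 1 labelled Bmal1-/-. The number of regulators that rose was 1 without a filter on low counts. By the study's criterion, 1 of the 38 genes was lower with library size only and 1 with limma on log2 FPKM. Leaving out each library in turn, the further amino acid genes that rose numbered 10 to 19 and the regulators that rose 1 to 2. By the study's criterion, 1 to 3 of the 38 genes were then lower and 3 to 4 higher. Uncalled genes near 0 changed sign. With at least 10 counts in every sample the log2 fold change was -0.0028 for Got2, -0.0065 for Gpt, -0.004 for Fah, -0.01 for Sirt3 and -0.01 for Igfbp1. With DESeq2 it was -0.0033 for Sirt3 and -0.0042 for Igfbp1, and with upper-quartile factors -0.00014 and -0.003. Leaving out each library, log2 fold changes ranged from -0.16 to 0.08 (Cps1), -0.23 to 0.15 (Ass1), -0.09 to 0.10 (Slc25a15), -0.04 to 0.10 (Got2), -0.14 to 0.15 (Gpt), -0.25 to 0.08 (Gstz1), -0.06 to 0.08 (Fah), -0.03 to 0.17 (Kmo), -0.02 to 0.16 (Haao), -0.36 to 0.04 (Prodh), -0.05 to 0.12 (Gnmt) and -0.23 to 0.0026 (Cth). The ranges were -0.04 to 0.20 (Creb3l3), -0.18 to 0.0051 (Atf4), -0.08 to 0.12 (Sirt3), -0.24 to 0.42 (Tsc22d3), -0.26 to 0.20 (Igfbp1) and -0.06 to 0.12 (Glul). The cause was not tested. Samples with the same replicate number did not deviate together (correlations of -0.09 to 0.06, and -0.094 to 0.121 for different numbers). Such values cannot exclude that the numbers pair samples, and the main test used no pairing. With the replicate block 6 of the 38 genes were lower and 8 higher, 4 regulators were lower, and Igfbp1 was at -0.0085. In the quasi-likelihood test of edgeR with that block, Cebpb (log2 fold change -0.67, adjusted p = 0.055) and Crtc2 (0.33, adjusted p = 0.082) lost their calls. Counts of 40 to 91 per library limit Prodh.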
